A study of Mus musculus with 9 samples.

Results

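Axon guidance genes encode the cues by which growing nerve fibres, migrating cells and sprouting vessels are attracted or turned away. Ephrins are membrane-bound ligands of the Eph receptor tyrosine kinases. Semaphorins act on plexins, with neuropilins as coreceptors of the secreted class. SLITs are secreted ligands of ROBO receptors, and netrins act through DCC, neogenin and the UNC5 receptors. The same families also act outside the nervous system, where they shape vessels, segregate tissues and pattern branching organs such as the lung.

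Their transcripts were examined in mid-foregut dissected from wild type embryos of the mouse, a piece of gut tube behind the pharyngeal arches and ahead of the liver from which the lung buds arise. Embryos were grouped by their number of somites into 16-20 somites (E8.5), 21-25 somites (E9.0) and 26-30 somites (E9.5). Each stage had 3 biological replicates, each a pool of 5 to 10 foreguts on 1 Affymetrix array, so single embryos cannot be told apart. No embryo carried a mutation or a treatment. The genes were all those whose single symbol on the array begins as an ephrin, Eph receptor, class 3 to 7 semaphorin, plexin, neuropilin, SLIT, ROBO, netrin or UNC5 gene. This gave 57 of 12393 genes, of which 31 encode ligands and 25 receptors. The remaining one, Unc50, fits by its letters alone, because it encodes a Golgi protein and no netrin receptor. Each gene was read from the probe set with its highest mean. Of the 57, 36 passed the filter on low signal that left 8675 genes for testing, 18 of them ligands and 17 receptors. A further 13 mouse genes of these families, among them Ephb2, Robo2, Plxna4 and Unc5a, were not analysed here.

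Array and tissue values bear on what follows. Signal on the arrays is given on the linear MAS5 scale, and stage differences are given with their SE as limma estimated them on log2(signal + 26.2), a scale that understates changes of dim genes. Of the 9 arrays, 21-25 somites replicate 1 and 26-30 somites replicates 1 and 2 had the lowest maximum signals and are called the narrow-range arrays. Their maxima were 27479.8 to 32583.5, against 43791.6 to 61749.1 on the others. The spiked control CreX, in its 3' probe set, read 3960.8, 9729.3 and 6897.5 on them and 9601.4 to 17472.8 on the others. As they all lie in the later stages, array range and stage cannot be fully told apart. Foxa2, an endoderm regulator, read 459.9 to 882.5 over all arrays, while the foregut factors Shh and Foxf1 and the lung factor Nkx2-1 lay below the filter. Isl1, a homeobox factor of the foregut field, read 666.7 to 1219.1 at 16-20, 966.9 to 1788.2 at 21-25 and 1711.7 to 2276.9 at 26-30 somites. Of 7 tested foregut field markers, 5 were higher and 2 lower over 26-30 against 16-20 somites. In limma 3 had an unadjusted p under 0.05, or 42.9% against 11.1% of all tested genes. One array, 16-20 somites replicate 2, stood apart in its liver and heart markers, whose median deviation from their mean over all arrays was 2.32 and 1.51. Their medians over 26-30 against 16-20 somites were -0.84 and -0.68. This array also held the lowest Efnb2 and Ntn1 signals, and its tissue content was not tested as a part of the results below. On a dissected tissue, a smaller number of cells of one type and less RNA in each cell cannot be told apart.

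Efnb2, Robo1 and Slit2 had the smallest p in the F test over all 3 stages, and the bases before their start sites are shown to give their sequence context. Each sequence is the 250 bases before the 1 start that the RefSeq promoter table (build GRCm38.p6) gives for the gene, read on the gene's own strand. For Slit2 and Robo1 this start lies inside the annotated gene, which begins at base 47981291 and base 72027518, so other starts lie upstream of the windows shown. Capitals mark matches, on either strand, to the SP and KLF box GGGCGG, the forkhead motif TGTTTAC, the Notch effector motif TGGGAA, the T-box motif AGGTGT and the TATA box TATAAA.
Efnb2, chr8:8661243-8661492, minus strand: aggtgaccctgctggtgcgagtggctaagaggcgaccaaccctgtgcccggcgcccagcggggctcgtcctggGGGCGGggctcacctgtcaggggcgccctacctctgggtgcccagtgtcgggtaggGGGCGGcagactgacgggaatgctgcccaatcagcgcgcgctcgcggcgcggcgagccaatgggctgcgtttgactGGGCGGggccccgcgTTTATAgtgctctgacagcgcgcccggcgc
Slit2, chr5:47982905-47983154, plus strand: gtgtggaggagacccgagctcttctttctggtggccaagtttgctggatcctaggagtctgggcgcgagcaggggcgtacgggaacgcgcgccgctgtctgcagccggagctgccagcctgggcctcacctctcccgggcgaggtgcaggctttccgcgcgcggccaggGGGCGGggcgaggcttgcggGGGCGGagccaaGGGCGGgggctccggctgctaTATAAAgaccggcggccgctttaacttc
Robo1, chr16:72662899-72663148, plus strand: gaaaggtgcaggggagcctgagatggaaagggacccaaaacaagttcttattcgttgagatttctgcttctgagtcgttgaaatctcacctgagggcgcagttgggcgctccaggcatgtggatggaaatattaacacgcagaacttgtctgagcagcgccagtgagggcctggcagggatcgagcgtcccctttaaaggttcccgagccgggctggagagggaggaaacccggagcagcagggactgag
Efnb2 and Slit2 each held 3 SP and KLF boxes and 1 TATA match, and Robo1 held 0 matches to any of the 5 motifs. The SP and KLF box stood in 48 of 63 promoters of the guidance genes and in 32.7% of all 32851 promoters. The TATA match stood in 2 of the 63, those of Efnb2 and Slit2, and in 12.4% of all. The forkhead motif was found in 0 of the 63 (3.17% of all), the Notch effector motif in 11 (21.6%) and the T-box motif in 4 (11.8%). Promoters of this family were rich in C and G: over the 50 genes with a sequence, the median GC content was 65.0% and the median number of CpG dinucleotides 16, against 52.0% and 5 over 27025 genes. The 25 promoters of 33 tested genes and the 13 of 17 dim genes that held at least 10 CpG came to 75.8% and 76.5%. These matches describe letters in a window and no binding was measured.

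The comparison of 26-30 with 16-20 somites spans the whole interval sampled. The ephrin gene Efnb2, the receptor genes Robo1 and Epha7, and the netrin gene Ntn1 had the widest differences with later signals higher, from 0.94 to 2.11 on the log2 scale. In limma 0 of 36 guidance genes had an adjusted p under 0.05, as for 0% of all tested genes. At an unadjusted p under 0.05 there were 4, or 11.1%, against 11.1% of all tested genes. All 4 were higher later and 0 lower, against 6.29% and 4.85% of all tested genes. The count was 2 without 16-20 somites replicate 2, where 6.92% of all tested genes passed. It was also 2 without 26-30 somites replicate 1 (5.75% of all tested genes) or replicate 2 (5.6%). With array weights it was 11, where 27.8% of all tested genes passed. It was 2 with each array's 99th percentile of signal as a covariate, where 7.99% passed. Removing the narrow-range arrays leaves 1 array at 26-30 somites, so no count is given for that fit. The arrays of the 2 stages did not overlap for 7 of the 36, or 19.4%, against 21.3% of all tested genes. Of these 6 were higher later and 1 lower, against 11.2% and 10.2% of all tested genes. Epha7, among the 4 and the 6, and Plxnd1, among the 6, passed the signal filter only through their later arrays. The median log2 difference of the family was 0.06 with 23 positive and 13 negative, against 0.01 and 50.8% positive over all tested genes. Of 18 ligand genes 9 were positive (median 0.00), and of 17 receptor genes 13 were (median 0.10).

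**Figure D1:**
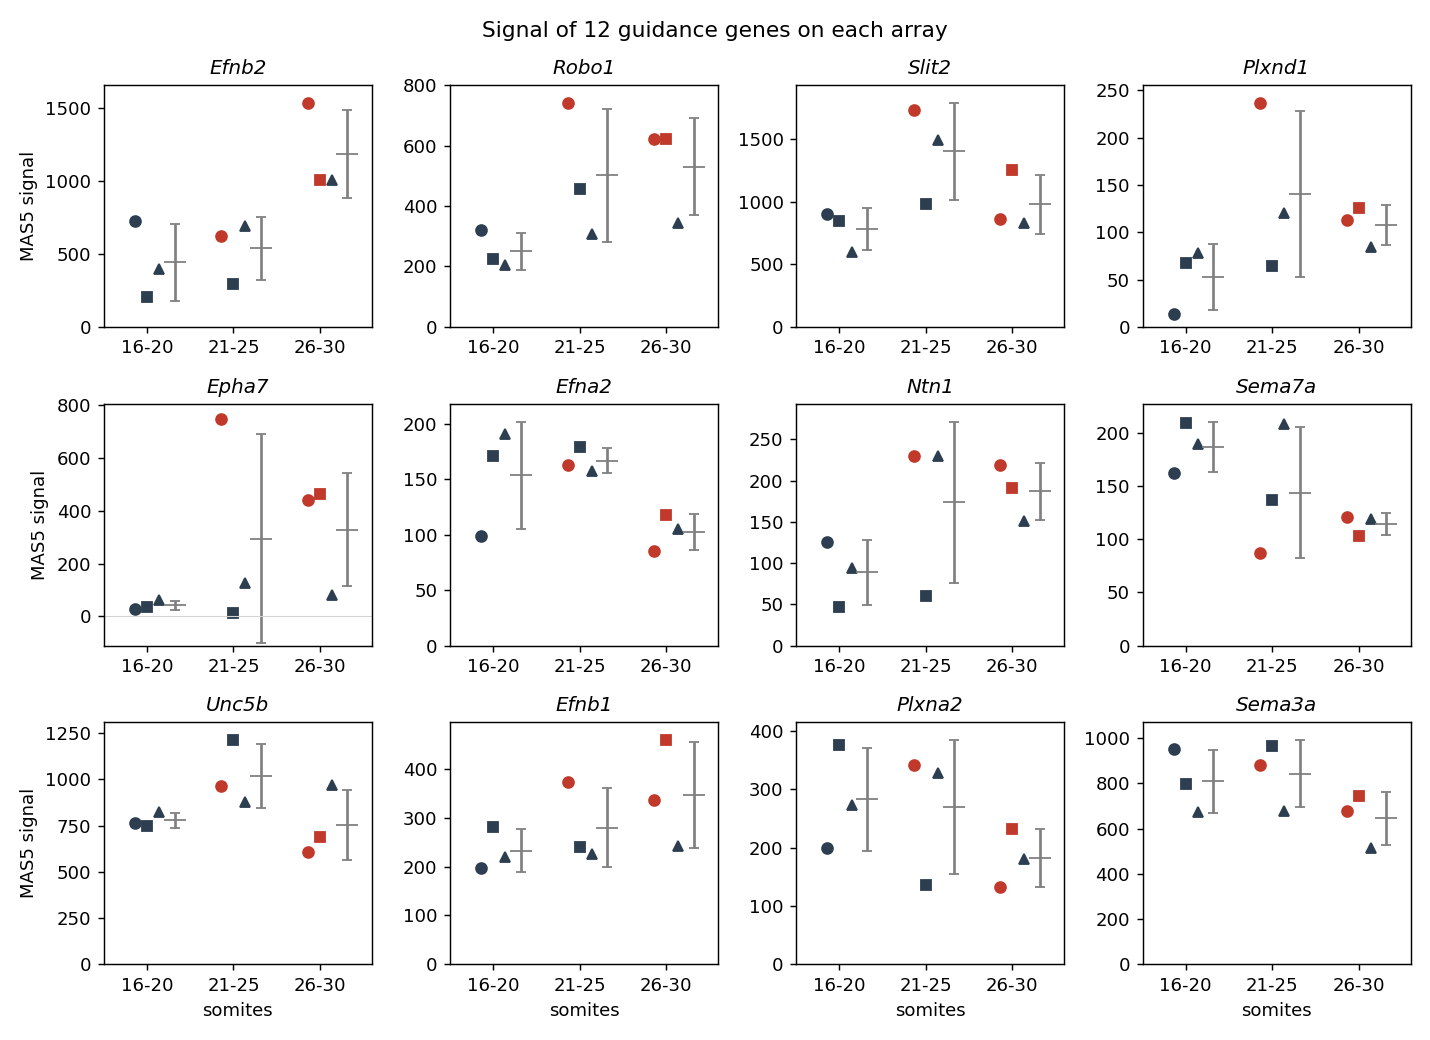
MAS5 signal (y axis, linear, each panel on its own scale) of the 12 guidance genes with the smallest F-test p against somite stage. Circles, squares and triangles are replicates 1, 2 and 3, red marks the 3 narrow-range arrays, and grey bars are the mean ± SD of 3 arrays. Efnb2 lies at 1007.8 to 1533.6 on the 3 latest arrays and at 202.5 to 721.9 on the 3 earliest.

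Among the ephrins, Efnb2, a transmembrane ligand known as a marker of arterial endothelium, had the smallest F-test p of the 36 genes. Its signals were 721.9, 202.5 and 399.5 at 16-20 somites, 625.1, 291.6 and 693.3 at 21-25 somites and 1533.6, 1007.8 and 1007.8 at 26-30 somites. All 3 latest arrays lay above all 6 others, and both earlier stages overlapped. The stage means were 441 ± 262, 537 ± 215 and 1183 ± 304 (SD, n = 3). The difference over the whole interval was 1.51 ± 0.42 with an adjusted p of 0.323 in limma, and that of the second step was 1.16 ± 0.42 with 0.998. With the narrow-range arrays removed, so that 26-30 somites kept 1 array, it was 1.31. With arrays weighted by their spread the adjusted p was 0.0132, and over all alternatives it ranged from 0.0132 to 0.999. The difference was 1.07 when 16-20 somites replicate 2, where Efnb2 was lowest, was left out. The second probe set of Efnb2 above the filter gave 0.76, and its 2 dim probe sets gave -0.73 and -0.21. The mean of all 4 was 0.33. The summed signal of 14 endothelial markers was 2755 to 3298 at 16-20, 3077 to 5126 at 21-25 and 2785 to 3693 at 26-30 somites. The last stage overlapped the first in this sum, but single markers differed. Of 11 tested, 7 were higher and 4 lower over the whole interval, with a median of 0.06. In limma 2 had an unadjusted p under 0.05, Eng (1.00) and Sox18 (1.11), or 18.2% against 11.1% of all tested genes. The part of endothelium in the Efnb2 values was not tested.

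Efnb1, the X-linked ephrin-B gene, read 197.7, 282.0 and 218.8 at 16-20 somites and 336.5, 458.9 and 242.8 at 26-30 somites, so the stages overlapped. The difference was 0.50 ± 0.28 with an adjusted p of 0.511 in limma. Leaving out 26-30 somites replicate 2 gave 0.28, leaving out all narrow-range arrays gave 0.07, and the 2 other probe sets of this gene gave 0.83 and -0.23. Efnb3, the remaining ephrin-B gene, showed a difference of -0.04 ± 0.22.

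The products of the ephrin-A genes are held to the membrane by a lipid anchor, and 3 of these genes were tested. Efna2 read 98.8, 170.8 and 191.0 at 16-20 somites, 162.4, 179.2 and 157.7 at 21-25 somites and 85.3, 117.4 and 105.5 at 26-30 somites. Its last stage lay wholly below the middle one and overlapped the first. The second-step difference was -0.59 ± 0.26 with an adjusted p of 0.998 in limma. Efna3 and Efna4 had whole-interval differences of -0.46 ± 0.34 and -0.22 ± 0.23. Efna1, Efna3 and Efna4 lie side by side on chromosome 3 with 0 protein-coding genes between them, and Efna1 was too dim to test. Its signal ran from 24.1 to 120.2, and that of Efna5 from 4.7 to 43.6.

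Of the 11 Eph receptor genes 5 were tested, and all 5 had whole-interval differences above 0, where 50.8% of all tested genes did. Their median was 0.13 and their lowest value 0.02. Epha7, a receptor of ephrin-A ligands known from the neural tube, was the widest of all 36 genes. Its 16-20 somites values all lay below the filter level of 6.66 on the log2 scale. The filter was thus passed only through later arrays. It read 28.5, 36.7 and 62.0 at 16-20 somites, 744.5, 12.5 and 125.5 at 21-25 somites and 439.8, 463.2 and 81.7 at 26-30 somites. The high values were all on the narrow-range arrays, and the middle stage ran from the lowest to the highest value of all 9 arrays. The whole-interval difference was 2.11 ± 0.86 with an adjusted p of 0.396 in limma, 0.0195 with array weights and 0.0195 to 0.999 over all alternatives. Without the narrow-range arrays it was 0.68. The difference also fell to 1.40 with a pseudocount 4 times larger and to 0.83 with the mean of all probe sets, since the other probe sets above the filter gave 0.46 and -0.09. The summed signal of 13 neural and neural crest markers was 1081 to 1700 at 16-20, 1434 to 2273 at 21-25 and 1820 to 2161 at 26-30 somites. Of 8 tested, 6 were higher and 2 lower over the whole interval. Sox10 and Erbb3 showed 1.03 and 0.87, while Neurog2 showed -1.13, with its latest arrays wholly below the earliest. The part of these cells in the Epha7 values was not tested. The neuronal marker Tubb3 was below the filter at 26.6 to 67.3.

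Receptors that pair with the ephrin-B ligands had narrower differences. Ephb3, which takes part in sorting epithelial cells in the gut, read 422.4, 626.9 and 591.3 at 16-20 somites and 833.5, 721.2 and 697.9 at 21-25 somites, with no overlap. Its first-step difference was 0.45 ± 0.28 with an adjusted p of 0.573 in limma. Ephb4, the venous partner of ephrin-B2, showed 0.05 ± 0.34 over the whole interval, where Efnb2 showed 1.51 ± 0.42. Epha4, which binds both ligand classes, showed 0.13 ± 0.30 and Epha1 0.02 ± 0.23. Epha2, Epha3, Epha5, Epha6, Epha8 and Ephb6 were below the filter.

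**Figure D2:**
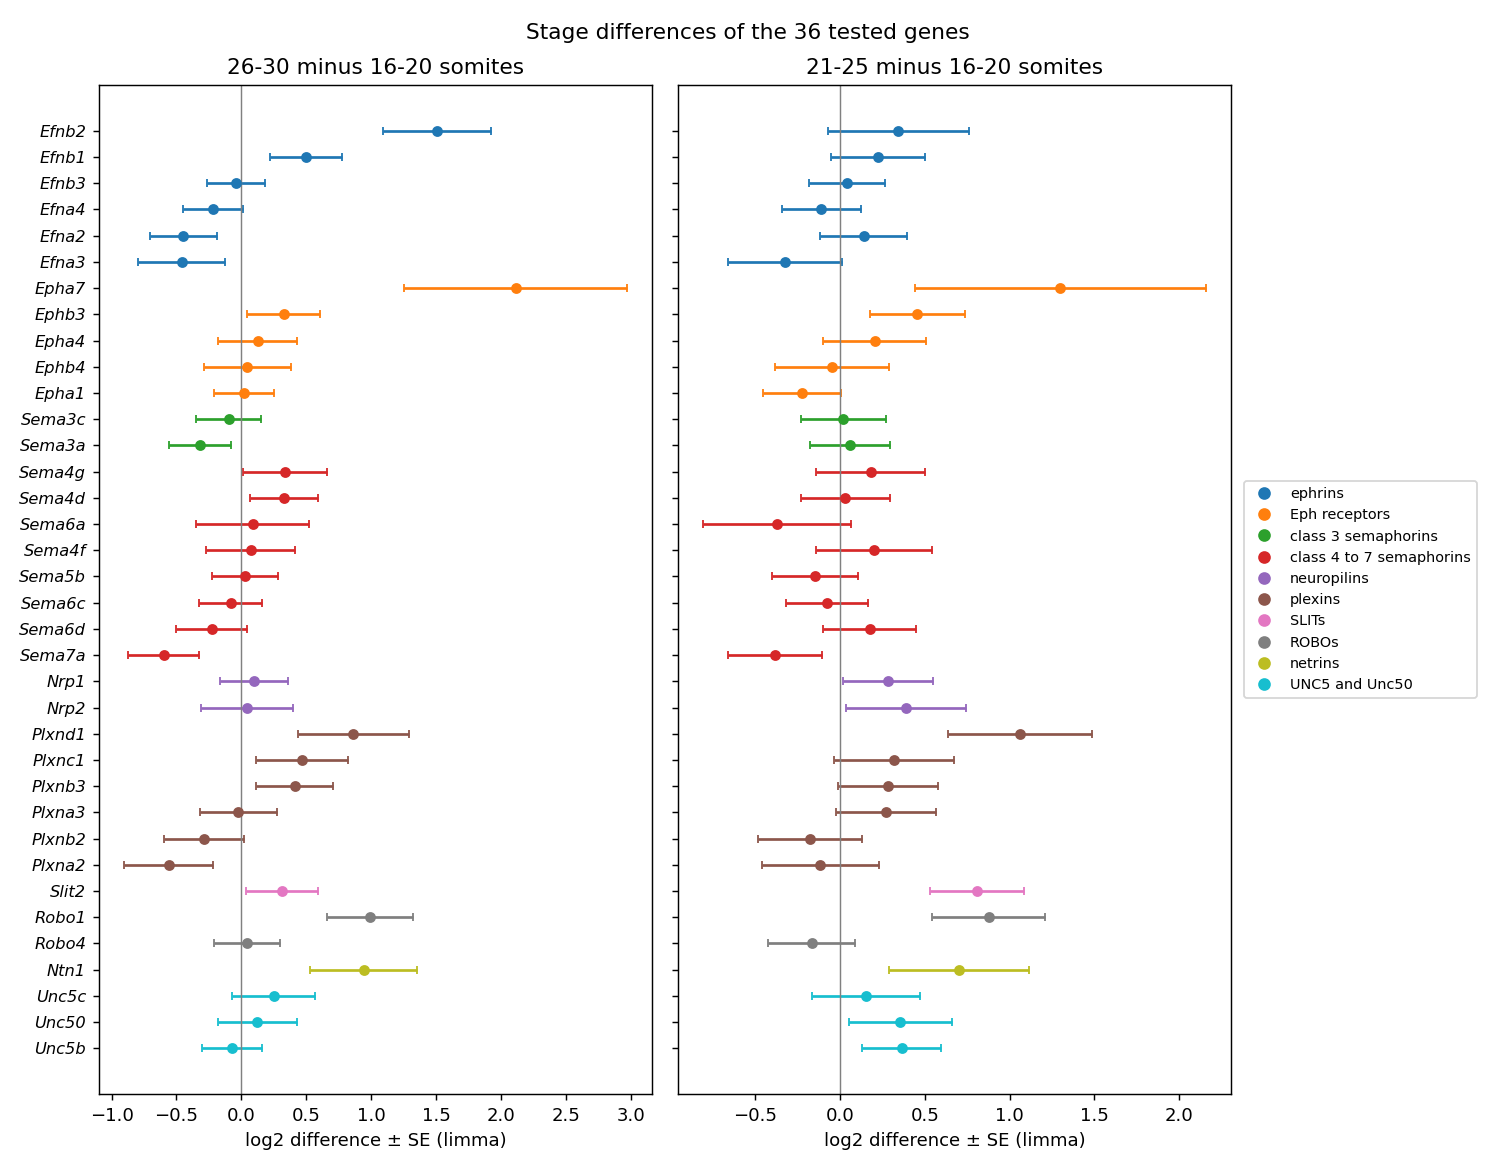
Log2 difference ± SE from limma (x axes) of the 36 tested genes (y axis, grouped and coloured by family) for 26-30 minus 16-20 somites on the left and 21-25 minus 16-20 somites on the right, where both panels share the 16-20 somite arrays. Epha7 at 2.11 and Efnb2 at 1.51 lie farthest right in the left panel, and most other genes lie within 0.6 of 0.

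The comparison of 21-25 with 16-20 somites asks which guidance genes differed before the last stage. Slit2, Robo1 and Plxnd1 had higher signals at 21-25 somites, by 0.81, 0.88 and 1.06 on the log2 scale. In limma 0 of 36 had an adjusted p under 0.05, as for 0% of all tested genes. At an unadjusted p under 0.05 there were 3, or 8.33%, against 11.1% of all tested genes. All 3 were higher later and 0 lower, against 5.68% and 5.38% of all tested genes. Plxnd1 among them passed the signal filter only through its later arrays. Leaving out 16-20 somites replicate 3 or 21-25 somites replicate 1 gave 1 gene, against 7.44% and 8.31% of all tested genes. Leaving out 21-25 somites replicate 2 gave 5, against 14.9%. The fit with the 99th percentile as covariate gave 2, against 10.7%. The arrays did not overlap for 3 (Ephb3, Slit2 and Unc5b), or 8.33%, against 14.2% of all tested genes. These 3 were higher later and 0 lower, against 6.94% and 7.30% of all tested genes. The median difference was 0.18 with 25 positive and 11 negative, against 0.00 and 50.2% positive over all tested genes. It was -0.02 without 16-20 somites replicate 1, the array on which 9 of the 36 genes had their lowest value, and 0.05 without 21-25 somites replicate 1, on which 13 had their highest. Receptors had a median of 0.28 and ligands 0.05.

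SLIT2 is a secreted repellent and ROBO1 its receptor, and both genes had values that were higher at 21-25 somites. Slit2 read 903.9, 850.6 and 595.3 at 16-20 somites, 1737.4, 981.0 and 1499.3 at 21-25 somites and 859.6, 1254.2 and 833.1 at 26-30 somites. The 3 middle arrays lay above the 3 earliest, and the last stage overlapped both. The first-step difference was 0.81 ± 0.28 with an adjusted p of 0.365 in limma, and the second-step difference was -0.49 ± 0.28 with 0.998. The difference between the steps was -1.30 ± 0.48 with an adjusted p of 0.751 in limma. Of the 36 genes it was the only one at an unadjusted p under 0.05 for the difference between the steps, where 6.32% of all tested genes were. The first-step value was 0.64 when the narrow-range arrays were left out, and 0.23 with the mean of both Slit2 probe sets, of which one was dim and gave -0.34.

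Robo1 read 320.2, 223.9 and 204.3 at 16-20 somites, 741.2, 456.3 and 306.7 at 21-25 somites and 621.4, 622.9 and 345.2 at 26-30 somites. The latest arrays lay wholly above the earliest, and the middle ones overlapped both. The stage means were 250 ± 62.0, 501 ± 221 and 530 ± 160 (SD, n = 3). The whole-interval difference was 0.99 ± 0.33 with an adjusted p of 0.350 in limma, 0.0173 with array weights and 0.0173 to 0.999 over all alternatives. The 3 highest values were those of the narrow-range arrays, and without these the difference was 0.45. Robo4, a receptor of endothelium, showed 0.04 ± 0.26 over the same interval and -0.17 ± 0.26 in the first step. Robo3, which lies next to Robo4 on chromosome 9, and the ligand genes Slit1 and Slit3 were below the filter. Slit1 had its 2 highest signals, 108.4 and 177.3, at 21-25 somites and read 2.4 to 40.5 on the other 7 arrays. Slit3 varied within 16-20 somites from 19.8 to 148.6.

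Ntn1 encodes netrin-1, a secreted cue that attracts or repels according to its receptor. Its signals were 125.2, 46.6 and 94.4 at 16-20 somites, 230.2, 60.6 and 230.3 at 21-25 somites and 219.1, 191.2 and 150.5 at 26-30 somites. The latest arrays lay above the earliest, and the middle stage ran across both. The difference was 0.94 ± 0.41 with an adjusted p of 0.428 in limma, 0.0405 with array weights and 0.0405 to 0.999 over all alternatives. Without 16-20 somites replicate 2 it was 0.64. A dim second probe set gave -0.17, the mean of both 0.39 and a pseudocount 4 times larger 0.61. Ntn3 and Ntn4 were below the filter.

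The netrin receptor genes overlapped between 16-20 and 26-30 somites. Unc5b, also known from vessels, read 762.7, 749.9 and 821.9 at 16-20 somites, 961.8, 1212.1 and 877.5 at 21-25 somites and 605.0, 686.0 and 969.1 at 26-30 somites. The middle arrays lay above the earliest ones and overlapped the latest. The second-step difference was -0.44 ± 0.23 with an adjusted p of 0.998 in limma, and -0.09 without the narrow-range arrays. Unc5c read 761.6 to 1546.6 at 16-20 and 924.2 to 1615.1 at 26-30 somites (0.25 ± 0.32), with arrays of one stage spread as widely as the stages. Leaving out single arrays moved its difference between 0.02 (26-30 somites replicate 3) and 0.57 (16-20 somites replicate 3), and array weights gave -0.05. Dcc, the attractive netrin receptor, showed -0.17 over the whole interval, and Neo1, neogenin, showed 0.60, each with overlapping arrays. Unc50 read 2042.0 to 5309.0 over all arrays, with 0.12 ± 0.30.

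**Figure D3:**
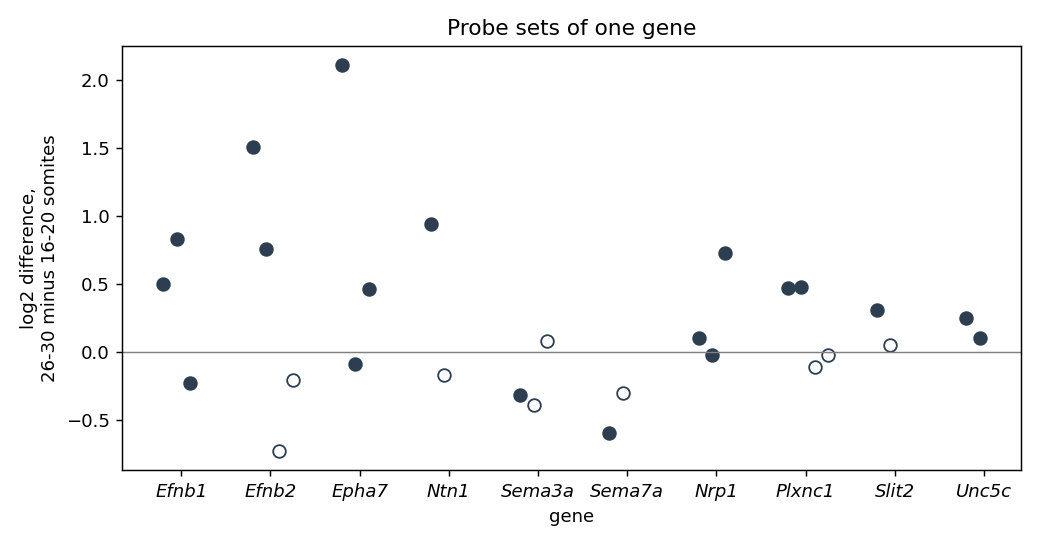
Log2 difference of 26-30 minus 16-20 somites (y axis) for every probe set of 10 guidance genes (x axis), with filled circles for probe sets above the signal filter and open circles for dim ones. The filled circles of Epha7 run from -0.09 to 2.11, and the 2 filled circles of Plxnc1 lie at 0.47 and 0.48.

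Probe sets of one gene often differed. Of the 36 tested genes, 7 had at least 2 probe sets above the filter, and in 4 of these (Efnb1, Epha7, Nrp1 and Unc50) the probe sets gave both signs over the whole interval. Efnb2, Plxnc1 and Unc5c gave the same sign in each. The target sequences of the probe sets were not analysed here, so which transcript forms they read is not known. Position along the transcript was not examined either. Over all arrays the beta-actin control read 2363.2 to 6463.8 at its 3' end and 52.2 to 291.7 at its 5' end. The part of such end differences in the values above was not tested.

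The semaphorins held the most genes. Of 5 class 3 genes, which encode secreted ligands, Sema3a and Sema3c were tested. Sema3a, a repellent that binds neuropilin-1, read 954.0, 798.9 and 672.7 at 16-20 somites, 882.2, 967.3 and 679.2 at 21-25 somites and 676.5, 744.3 and 514.2 at 26-30 somites. All 3 stages overlapped, and the second-step difference was -0.37 ± 0.24 with an adjusted p of 0.998 in limma. That value was -0.23 with 26-30 somites replicate 3 left out and -0.63 with the narrow-range arrays left out. Sema3c, a cue for cells of the cardiac outflow tract, showed -0.10 ± 0.25 over the whole interval. Sema3b, Sema3e and Sema3f were below the filter.

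Of the 12 genes of classes 4 to 7, which are membrane-bound, 8 were tested, with a median of 0.05 and a range of -0.60 to 0.34 over the whole interval. Sema7a, whose product carries a lipid anchor, had the lowest value. It read 162.2, 209.2 and 190.1 at 16-20 somites, 86.7, 136.7 and 208.7 at 21-25 somites and 121.4, 102.9 and 119.1 at 26-30 somites. The latest arrays lay wholly below the earliest, and of the 36 tested genes this held for Sema7a alone. The difference was -0.60 ± 0.28 with an adjusted p of 0.447 in limma, and its dim second probe set gave -0.30. It was -0.55 without the narrow-range arrays. Sema4d and Sema4g showed 0.33 ± 0.26 and 0.34 ± 0.32, and Sema6c, read at 243.5 to 455.1, showed -0.08 ± 0.24. Sema4a, Sema4b, Sema5a and Sema6b were below the filter.

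Among the semaphorin receptors, Plxnd1, a plexin of endothelium that binds class 3E semaphorin, had the widest difference. Its mean log2 signal at 16-20 somites lay below the filter level of 6.66, so it passed only through its later arrays. It read 13.4, 67.2 and 78.3 at 16-20 somites, 236.9, 64.6 and 120.9 at 21-25 somites and 113.1, 125.2 and 84.3 at 26-30 somites. The highest value was on 21-25 somites replicate 1 and the lowest on 16-20 somites replicate 1. The latest arrays lay above the earliest, while the middle ones overlapped both. The first-step difference was 1.06 ± 0.43 with an adjusted p of 0.413 in limma. The value was 0.62 with 16-20 somites replicate 1 left out, 0.67 with 21-25 somites replicate 1 left out and 0.60 with a pseudocount 4 times larger. Markers of several tissues moved in the same direction on these arrays. Values are median deviations from the mean over all arrays, on 21-25 and then on 16-20 somites replicate 1. They were 0.66 and -0.38 for 11 tested endothelial markers, 0.58 and -0.27 for mesenchymal and 0.51 and -0.49 for hepatic markers. Foregut field markers gave 0.41 and -0.15. Erythroid markers moved the other way, at -0.76 and 0.30, and all tested genes together gave 0.12 and -0.06. The endothelial markers Pecam1, Tie1 and Erg were below the filter, at 16.2 to 77.8, 1.7 to 32.2 and 7.6 to 49.1. The part of these tissues in the Plxnd1 values was not tested. Of its ligands, Sema3e read 5.4 to 41.0.

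The other plexin genes ranged from -0.56 to 0.47 over the whole interval. Plxna2, a class A receptor, read 199.2, 375.8 and 273.7 at 16-20 somites, 342.3, 136.5 and 328.8 at 21-25 somites and 132.4, 232.5 and 180.4 at 26-30 somites, with overlap at every step. Its difference was -0.56 ± 0.34 with an adjusted p of 0.544 in limma, and -0.35 without 16-20 somites replicate 2. Plxnb3 read 91.3 to 124.4 at 16-20 and 133.0 to 172.1 at 26-30 somites without overlap, a difference of 0.41 ± 0.30. Plxnb2, a receptor of class 4 semaphorins, showed -0.29 ± 0.31, Plxna3 -0.02 ± 0.30 and Plxnc1, the receptor of semaphorin 7A, 0.47 ± 0.35 where its ligand gene Sema7a showed -0.60 ± 0.28.

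The neuropilins, coreceptors for class 3 semaphorins and for VEGF, overlapped between all stages. Nrp1 read 1949.5, 1606.6 and 1246.6 at 16-20 somites, 2723.9, 1754.8 and 1480.0 at 21-25 somites and 1618.7, 1946.1 and 1523.4 at 26-30 somites. Its first-step difference was 0.28 ± 0.27, and 0.03 without 21-25 somites replicate 1, the array with its highest value. The 2 other Nrp1 probe sets above the filter gave 0.68 and 0.89 for this step, and the mean of all probe sets 0.62. Nrp2 read 78.5, 210.4 and 220.0 at 16-20 somites and 335.1, 169.2 and 167.0 at 21-25 somites. The difference was 0.39 ± 0.36, 0.09 without 21-25 somites replicate 1 and -0.01 without 16-20 somites replicate 1. In limma the adjusted p was 0.732 for Nrp1 and 0.726 for Nrp2.

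**Figure D4:**
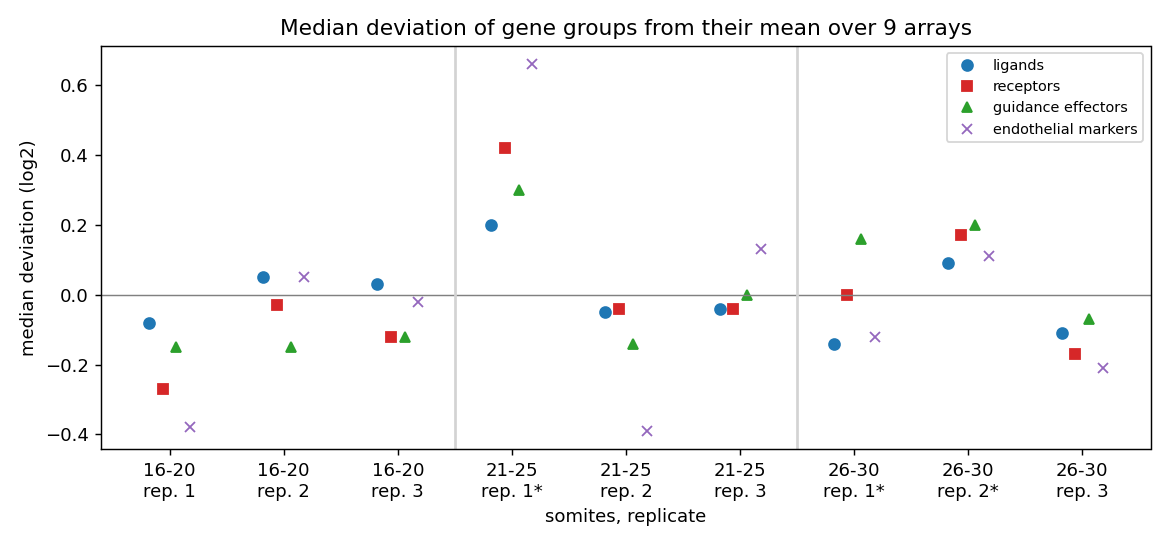
Median deviation (y axis, log2) of the tested ligand genes, receptor genes, guidance effectors and endothelial markers from each gene's mean over 9 arrays, for each array (x axis, somite stage and replicate, with an asterisk on the narrow-range arrays). Receptor genes lie at 0.42 on 21-25 somites replicate 1 and at -0.27 on 16-20 somites replicate 1, and endothelial markers lie at 0.66 and -0.38 on the same arrays.

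Receptor genes varied more between arrays of one stage than between stage medians. Their median deviation was -0.27, -0.03 and -0.12 at 16-20 somites, 0.42, -0.04 and -0.04 at 21-25 somites and 0.00, 0.17 and -0.17 at 26-30 somites. That of ligand genes lay between -0.14 and 0.20. On 21-25 somites replicate 1, 13 of the 36 guidance genes had their highest signal of all arrays, where 21.9% of all tested genes had theirs. On 16-20 somites replicate 1, 9 had their lowest and 0 their highest, where 13.2% and 5.96% of all tested genes did.

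The comparison of 26-30 with 21-25 somites covers the last step. Efnb2 was higher by 1.16 ± 0.42 and Efna2 lower by -0.59 ± 0.26, and these 2 were the guidance genes at an unadjusted p under 0.05, or 5.56%, against 4.07% of all tested genes (2.02% higher and 2.05% lower). The count was 0 without 26-30 somites replicate 1 (2.22% of all tested genes) and 1 without 21-25 somites replicate 3 (5.37%). With array weights it was 11 (17.7%), and with the 99th percentile as covariate it was 3 (5.88%). In limma 0 of 36 had an adjusted p under 0.05, as for 0% of all tested genes. The arrays did not overlap for 3 genes, Efnb2, Efna2 and Epha1, or 8.33%, against 9.35% of all tested genes (4.51% higher and 4.84% lower). The median was -0.09 with 15 positive and 21 negative, against 0.01 and 50.9% positive over all tested genes. It was 0.04 without 21-25 somites replicate 1. Over all 3 stages, Efnb2, Robo1 and Slit2 had an unadjusted p under 0.05 in the moderated F test, 3 of 36, where 9.76% of all tested genes did. That count was 1 when 16-20 somites replicate 2 or 26-30 somites replicate 1 was left out, where 5.81% and 5.89% of all tested genes passed. It was 7 when 21-25 somites replicate 2 was left out (13.6%) and 11 with array weights (26.5%). With the 99th percentile as covariate it was 2 (9.15%). The adjusted p of Efnb2, Robo1 and Slit2 in the limma F test started at 0.432, and 0% of all tested genes had one under 0.05.

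A list of 85 genes that act with or below these receptors was also examined, of which 70 were on the array and 58 were tested. None of the 58 had an adjusted p under 0.05 in limma in any of the 3 comparisons, and 11, 9 and 2 had an unadjusted p under 0.05 over the whole interval, the first step and the second, or 19.0%, 15.5% and 3.45%, against 11.1%, 11.1% and 4.07% of all tested genes. Over the whole interval 44 of the 58 were positive, with a median of 0.28, against 50.8% positive and 0.01 over all tested genes. Coreceptors and matrix partners had a median of 0.13, cytoskeletal effectors 0.15, adaptors and kinases 0.35, and proteases and PDZ partners 0.09.

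The effector genes with the smallest F-test p were Enah, Rac1 and Farp1. Enah, an actin regulator that acts in guidance responses, read 5715.5, 2204.3 and 3167.3 at 16-20 somites, 9913.7, 9954.7 and 5780.2 at 21-25 somites and 9781.6, 9081.4 and 7368.2 at 26-30 somites. All 6 later arrays lay above the 3 earliest, a first-step difference of 1.27 ± 0.33 with an adjusted p of 0.317 in limma. Rac1, which acts on the actin skeleton, read 905.6, 896.9 and 1237.0 at 16-20 somites, 3470.5, 1566.1 and 1505.8 at 21-25 somites and 2973.1, 3062.6 and 1753.0 at 26-30 somites. Its whole-interval difference was 1.31 ± 0.34 with an adjusted p of 0.317 in limma, and its 3 highest values were those of the narrow-range arrays. Farp1, an exchange factor that acts with plexins, read 624.3 to 1013.6 at 16-20 and 1179.3 to 1976.8 at 21-25 somites (0.99 ± 0.26). Effectors as a group had median deviations of 0.30, 0.16 and 0.20 on the narrow-range arrays and -0.15 to 0.00 on the other 6, and the part of the arrays' range in these values was not tested.

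The 21 genes below the filter had means from 4.6 to 86.5 and single values from 1.7 to 177.3. They are 6 of 11 Eph receptor genes, 7 of 17 semaphorin genes, 2 of 8 ephrin genes, 2 of 3 SLIT genes, 2 of 3 netrin genes, 1 of 3 ROBO genes and 1 of 7 plexin genes (Plxna1). Detection calls were not used here, so a low value does not show that a gene was silent.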

How the data were processed

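The deposited values are MAS5 intensity values on a linear scale, as the authors made them per the submitters' processing notes; its version and scaling target are not stated there, and no detection calls were used. Per the labels' protocols, each pool gave 100 ng of RNA, amplified in 2 rounds. Array means trimmed by 2% at each end were 500.2 to 500.3. Of 22690 probe sets, 20380 had 1 symbol on the platform's annotation and gave 12393 genes, each read from whichever of its probe sets had the highest mean log2. All 57 symbols matched RefSeq.

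The pseudocount, 26.2, was the 20th percentile of all values without control probe sets. Genes under the 30th percentile of mean log2 signal (6.66) were left out. Stage means of all 9 arrays were fitted in limma 3.58.1 (lmFit, then eBayes with a mean-variance trend, in R 4.3.3), two-sided, with Benjamini-Hochberg adjustment over 8675 genes at 0.05. The step was tested on simulated data. The p-values measure the spread between pools, and precision is limited by having 9 arrays. No 2 arrays were identical.

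Members and lists were chosen with earlier results of these data known, so no list was tested. One subgroup of the effector list is not reported here. Described in full were the 12 genes with the smallest F-test p and, per family, that with the smallest p and the widest whole-interval difference; other genes are named by single values, and those given by array (Ephb3, Slit1, Slit3 and Plxnb3) were added after their values were seen. Motifs were chosen likewise. Alternatives were quantile normalization, centring, pseudocounts of 6.55 and 105, filters, eBayes without a trend, array weights, a replicate block, the mean of all probe sets, 6 arrays only and leaving out each array. Fits without the narrow-range arrays or with each array's 99th percentile as covariate were added after seeing the data.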

Additional observations from a re-analysis of the deposited data

How the results depend on the processing

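No guidance gene had an adjusted p under 0.05 in limma under any alternative except array weights, which give arrays with less spread more say. With those weights 4 genes did over the whole interval (Efnb2 1.70, Epha7 2.42, Robo1 1.24 and Ntn1 1.03), where 731 of 8675 genes (8.43%) did, and 3 in the F test (Efnb2, Epha7 and Robo1), where 339 genes (3.91%) did. The cause was not tested. The largest weights were 3.38 on 26-30 somites replicate 1, a narrow-range array, and 2.84 on 21-25 somites replicate 3. The other narrow-range arrays, 21-25 somites replicate 1 and 26-30 somites replicate 2, had 0.402 and 1.34. Array weights moved the median difference of the guidance genes to -0.07 over the whole interval and to 0.03 in the first step, and turned Unc5c to -0.05. The first-step median was 0.05 without the 3 narrow-range arrays and 0.02 with the 99th percentile as covariate. Leaving out single arrays moved that median between -0.02 and 0.19, the second-step median between -0.17 and 0.04, the whole-interval median between 0.02 and 0.12 and the first step of Nrp2 between -0.01 and 0.60. Replicate numbers did not pair the arrays, since correlations of deviations between same-numbered arrays ran from -0.28 to 0.26. With the replicate block the counts at an unadjusted p under 0.05 were 4, 3 and 2, as without it, Efnb2 had an adjusted p of 0.293, and no call changed. Under the filter at the 50th percentile, 6 of the genes described (Epha7, Ntn1, Plxnd1, Sema7a, Efna2 and Nrp2) gave no value, nor did Sema7a with the mean of all probe sets. Signal near the array background limits the dim genes most.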
